A study of Mus musculus with 10 samples.

Results

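The TRBV12 family of the mouse T cell receptor β locus comprises TRBV12-1 and TRBV12-2, the V segments of the Vβ5 chains. Its members here are the clonotypes listed with either segment in 9 T cell receptor β (TRB) libraries. They numbered 1729 of 29481 clonotypes, of which 206 of 2788 came from the 8 skin libraries and 1523 of 26693 from lymph node. The family was chosen by its read shares in these libraries, which were known from earlier results, so all shares and clone sizes are a description and no test was run on them.

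A β chain is assembled from one V, one D and one J segment, and their junction forms CDR3 (complementarity-determining region 3), the loop that contacts antigen. Nucleotides added by terminal transferase diversify this junction, and chains made without them resemble those of fetal and newborn thymus, where the enzyme is scarce. Vβ5-bearing T cells are deleted by superantigens of endogenous mammary tumour viruses in mouse strains that express the MHC class II molecule I-E.

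Tcrd-/- mice carry a germline deletion of the T cell receptor δ gene that leaves them without the γδ T cells which otherwise populate the epidermis and much of the dermis of mouse skin. All groups but WT were B6.129P2-Tcrdtm1Mom/J (Tcrd-/-), and the WT group was C57BL/6-N/Crl. Ages and treatments are not stated in the labels. From ear skin, the epidermal Tcrd-/- group (libraries A, B and C) was gated on high CD3 and TCRβ. Single libraries came from Tcrd-/- dermal TCRβ+ cells gated as CD103hi and as CD103+. CD103 is integrin αE, through which T cells bind E-cadherin of epithelia. Bulk TCRβ+ dermal cells gave 2 Tcrd-/- libraries (A and B) and 1 WT library. Peripheral lymph node TCRβ+ cells of Tcrd-/- mice gave 1 library. Each library was 1 pool of cells from 5 to 18 animals, so no value belongs to an animal. The libraries hold receptor transcripts only, and the sorted cell types could not be checked against markers.

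The libraries held between 31823 reads (CD103hi) and 189162 reads (WT dermis), and between 72 and 26693 clonotypes. By their names they fell into 3 sets, 1 with epidermal A, dermal A and lymph node, 1 with epidermal B and both CD103 sorts, and 1 with epidermal C, dermal B and WT dermis. Among the 206 TRBV12 clonotypes of skin, 79 had 1 read. At trace level, meaning under 1% of the share reached by an identical nucleotide clonotype in another library of its set, were 10. For 42 of the 206 the CDR3 did not begin and end with the reference bases of its V and J segments. These 42 held 161 of the 31942 TRBV12 reads of skin, and 34 of them had 1 read. Their origin was not tested.

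In the GRCm38 annotation Trbv12-1 lies on chromosome 6 from 41113550 to 41114067 and Trbv12-2 from 41118851 to 41119364, both on the plus strand with 2 exons. Their annotated transcripts were 87.4% identical. The CDR3 part of both, at the 3′ end of the second exon, was the same 15 bases, so the CDR3 itself does not tell the segments apart and the split rests on the authors' assignment of upstream sequence. No CDR3 of either segment was also listed under another V segment in its library, whereas 2 nucleotide CDR3 sequences were listed under TRBV12-1 in 1 library and TRBV12-2 in another. The germline V end and both D segments are shown because the junctions below are read against them. All sequences run 5′ to 3′ and those of the reference are from the GENCODE M21 annotation.
Trbv12-1 and Trbv12-2 CDR3 end: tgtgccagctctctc
Trbd1: gggacagggggc
Trbd2: gggactgggggggc

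Leading TRBV12 clonotypes of the CD103hi dermal and epidermal libraries are printed next, since the clone sizes and junctions below refer to them. Capitals mark the bases between the stretch that matched the V reference and the stretch that matched the J reference. The first 3 are the leading TRBV12-2 clonotypes of CD103hi dermal cells.
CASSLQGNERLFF: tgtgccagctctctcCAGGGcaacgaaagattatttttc
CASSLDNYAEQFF: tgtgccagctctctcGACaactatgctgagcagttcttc
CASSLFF: tgtgccagctctctcttcttt
The leading TRBV12-1 clonotype of the same cells follows.
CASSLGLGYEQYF: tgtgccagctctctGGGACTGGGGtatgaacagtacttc
The next 3 led the TRBV12-2 reads of epidermal A, where a chain whose CDR3 is not spelled out in amino acids is named by its J segment.
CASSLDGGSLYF: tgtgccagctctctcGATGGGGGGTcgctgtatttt
TRBJ2-1 clone of epidermal A: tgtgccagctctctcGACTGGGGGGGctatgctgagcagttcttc
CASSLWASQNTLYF: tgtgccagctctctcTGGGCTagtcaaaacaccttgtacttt
The last 2 led epidermal B and epidermal C.
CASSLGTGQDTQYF: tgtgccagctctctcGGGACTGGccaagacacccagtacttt
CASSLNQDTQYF: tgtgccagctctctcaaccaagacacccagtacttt

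TRBV12-2 supplied most TRBV12 reads in every library but dermal B and lymph node. In epidermal A, B and C it took 18.8, 4.65 and 2.18% of reads. It took 21.5% in CD103hi and 3.65% in CD103+ dermal cells. Bulk dermal Tcrd-/- A and B had 0.593 and 1.91%, WT dermis 2.64% and lymph node 2.74%. CD103hi dermal cells and epidermal A thus stood above all others, while epidermal C fell between dermal B and WT dermis. Ranked among the TRBV segments of its library, TRBV12-2 came 1 of 24 in CD103hi dermal cells and 2 of 23 in epidermal A. It ranked 9, 8 and 10 in epidermal B, epidermal C and CD103+ dermal cells, and 14, 11, 11 and 15 in dermal A, dermal B, WT dermis and lymph node. Fewer TRBV12 cells and less receptor RNA per cell cannot be told apart in such libraries.

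TRBV12-1 was the minor member in skin. It took 1.44 and 0.331% of reads in epidermal A and B and was absent from the reads of epidermal C, where a count of 0 allows a share of up to 0.00684%. It took 3.32% in CD103hi, 0.275% in CD103+ and 0.0491% in bulk dermal A cells. Dermal B (3.88%) and lymph node (2.94%) were the 2 libraries in which TRBV12-1 exceeded TRBV12-2, and WT dermis had 0.936%. The family as a whole averaged 9.13% ± 9.72 of reads in epidermis (SD, n = 3) and 3.21% ± 3.64 in bulk dermis (SD, n = 2). Both ranges overlapped, at 2.18 to 20.2% in epidermal and 0.643 to 5.78% in dermal libraries. Neither library of bulk dermal cells was from the set of the CD103 sorts.

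**Figure D1:**
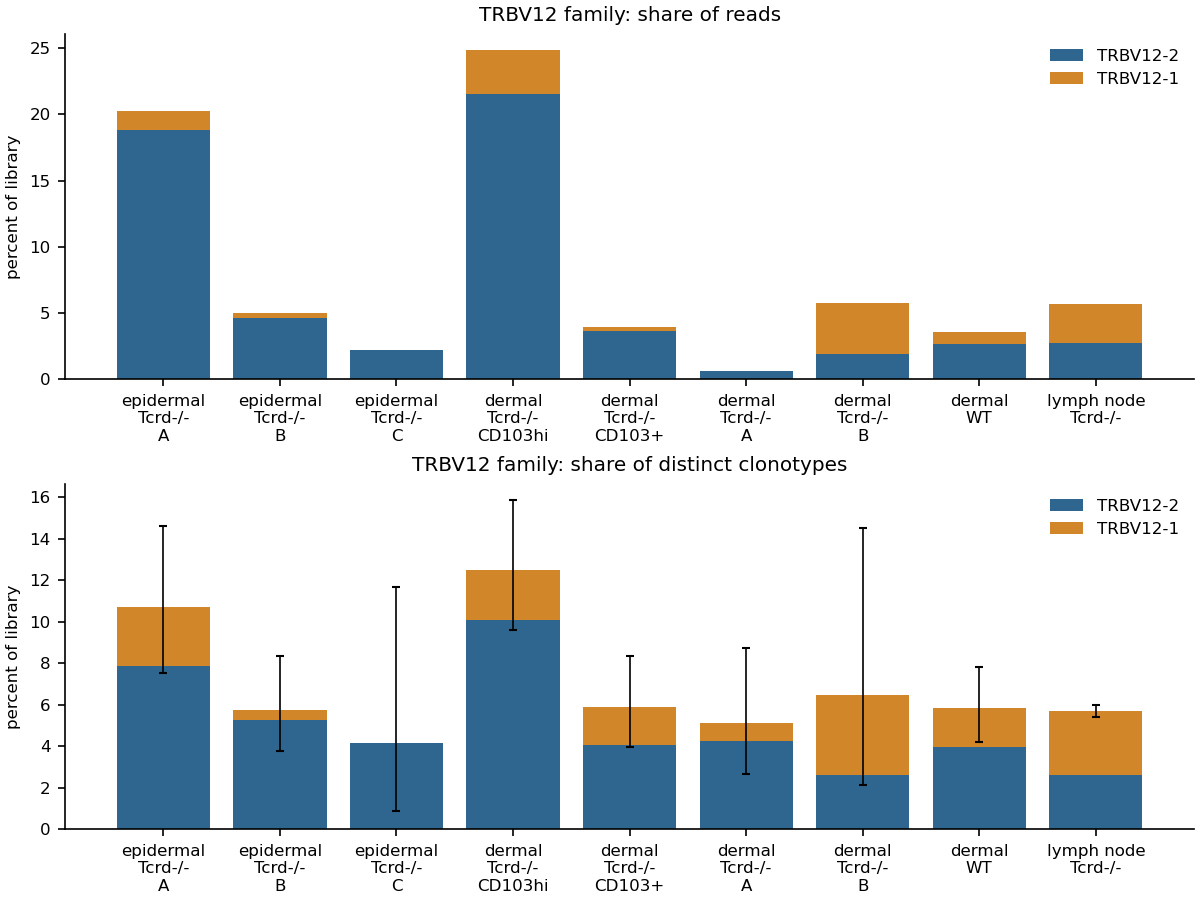
Share of reads (top) and of distinct clonotypes (bottom) taken by TRBV12-2 and TRBV12-1 in each of the 9 libraries, in percent of the library; bars in the lower panel span the exact 95% interval of the family's share. The family exceeds 20% of reads in epidermal A (20.2%) and CD103hi dermal cells (24.8%) only, and clonotype shares differ less than read shares.

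Counted as distinct clonotypes, the family varied less. It made up 12.5% of CD103hi dermal clonotypes (exact 95% interval 9.59 to 15.9%) and 10.7% of epidermal A clonotypes (7.52 to 14.6%). The other 7 libraries had between 4.17% (epidermal C) and 6.49% (dermal B), with 5.71% in lymph node (5.43 to 5.99%). The intervals of CD103hi dermal cells and epidermal A lay above the lymph node value, and those of the other 6 skin libraries included it. The intervals cover counting error only, since PCR copies of a molecule are counted as separate reads and a clonotype with few reads may be a copying error of a larger one. In CD103hi dermal cells 7 of the 57 TRBV12 clonotypes were 1 base away from a clonotype with at least 20 times their reads. There were 2 in epidermal A, 1 in epidermal B and 0 in the other skin libraries. Lymph node could have none by this rule, since its largest TRBV12 clonotype had 12 reads.

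The high read shares rested on several large clones. In CD103hi dermal cells 7 TRBV12 clonotypes each exceeded 1% of the library. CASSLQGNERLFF led with 2239 reads (7.04%), followed by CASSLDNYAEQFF with 1319 reads (4.14%) and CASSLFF with 620 reads (1.95%). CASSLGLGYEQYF, with TRBV12-1, had 553 reads (1.74%). In epidermal A 5 clonotypes exceeded 1%, led by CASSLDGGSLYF with 2277 reads (4.94%), the TRBJ2-1 clone with 2213 (4.80%) and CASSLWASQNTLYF with 1399 (3.03%). The remaining libraries had between 0 and 3 such clonotypes. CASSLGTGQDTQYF reached 1.90% of epidermal B with 975 reads, and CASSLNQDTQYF 1.47% of epidermal C with 645 reads.

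Without its largest clonotype the family still held 19.1% of the remaining reads in CD103hi dermal cells and 16.1% in epidermal A. The same step left 3.14% in epidermal B, 0.726% in epidermal C and 2.86% in CD103+ dermal cells. It left 0.349 and 3.78% in dermal A and B, 3.17% in WT dermis and 5.66% in the lymph node library. The order of the 2 highest libraries above the rest was therefore the same with and without the leading clone. The number of clonotypes needed to reach 50% of TRBV12 reads was 3, 2 and 1 in epidermal A, B and C and 3 and 2 in CD103hi and CD103+ dermal cells. It was 2 in dermal A and in dermal B, 6 in WT dermis and 384 for the lymph node library. The largest lymph node clonotype, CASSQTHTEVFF, had 12 reads, and 787 of the 1523 lymph node clonotypes had 1 read.

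**Figure D2:**
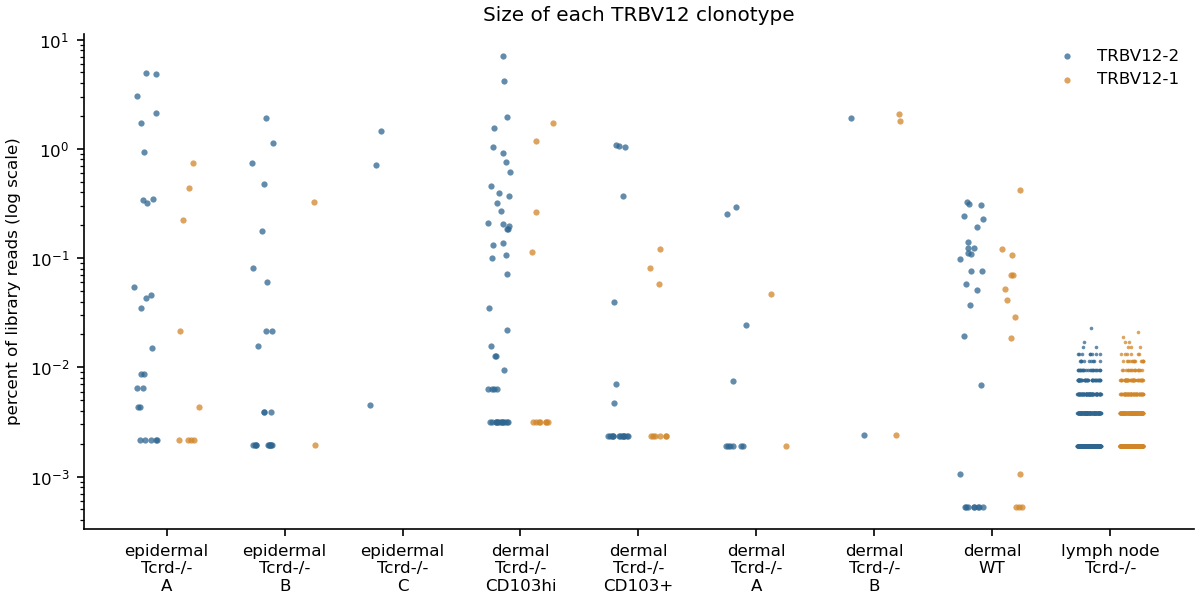
Each point is 1 TRBV12 clonotype, placed by its percent of the library's reads on a log scale, with TRBV12-2 left and TRBV12-1 right within each library. Clonotypes above 1% number 7 in CD103hi dermal cells and 5 in epidermal A, none in dermal A, WT dermis or lymph node, and every lymph node clonotype lies at or under 0.0229%.

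TRBV12-2 outnumbered TRBV12-1 among distinct clonotypes of most skin libraries, whereas the 2 were nearly even in lymph node. TRBV12-2 made up 73.5, 92 and 100% of TRBV12 clonotypes in epidermal A, B and C. It made up 80.7% in CD103hi (exact 95% interval 68.1 to 90.0%), 69.0% in CD103+ and 83.3% in bulk dermal A cells. WT dermis had 68.3%, and lymph node 46.2% (43.6 to 48.7%). Dermal B went the other way, with 2 of 5 clonotypes (40%). Among clonotypes with at least 2 reads the shares were 80, 92.9 and 100% in the epidermal libraries, 89.2% in CD103hi and 49.7% in lymph node. They were 70% of 10 in CD103+, 80% of 5 in dermal A, 33.3% of 3 in dermal B and 66.7% of 30 in WT dermis. Over all clonotypes, the interval of WT dermis, 51.9 to 81.9%, lay above that of lymph node. Those of epidermal A, epidermal B, CD103hi, CD103+ and dermal A did so too, whereas those of epidermal C and dermal B overlapped it. The CD103+ interval began at 49.2%, and 19 of its 29 clonotypes had 1 read, as had 7 of the 12 of dermal A. These intervals cover counting error over the clonotypes of 1 pool each, and differences between libraries were not tested.

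J pairing by reads differed from library to library. In CD103hi dermal cells TRBJ1-4 held 30.4% of TRBV12 reads and TRBJ2-1 held 22.9%. The TRBJ1-4 clone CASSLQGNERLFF alone was 28.3% of TRBV12 reads. TRBJ2-3 was found in 16 of the 57 clonotypes there but held 3.21% of TRBV12 reads. Of these 16 clonotypes, 9 had CDR3 ends that did not match the reference, and 6 were 1 base away from a far larger clonotype. Epidermal A read mostly TRBJ2-1 (25.6%), TRBJ2-3 (24.4%) and TRBJ2-4 (15.3%) with its TRBV12 chains. TRBJ2-5 led in epidermal B (48.2%) and epidermal C (67.3%), TRBJ2-7 in dermal A (46.2%), TRBJ2-1 in dermal B (36.1%), TRBJ2-5 in WT dermis (37.1%) and TRBJ2-7 in lymph node (19.9%). In CD103+ dermal cells TRBJ2-5 led with 28.3%. No J segment led in all libraries. Several of these shares were nearly all 1 clone. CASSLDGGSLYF was 24.4% of TRBV12 reads in epidermal A and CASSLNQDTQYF 67.3% in epidermal C. The largest clonotype was 27.7% in CD103+ cells, 45.9% in dermal A and 36.1% in dermal B. Those J shares by reads thus reflect the size of single clones. In WT dermis the TRBJ2-5 reads were spread over 10 of 41 clonotypes. In lymph node TRBJ2-7 had 19.8% of TRBV12 clonotypes, near its share of reads.

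**Figure D3:**
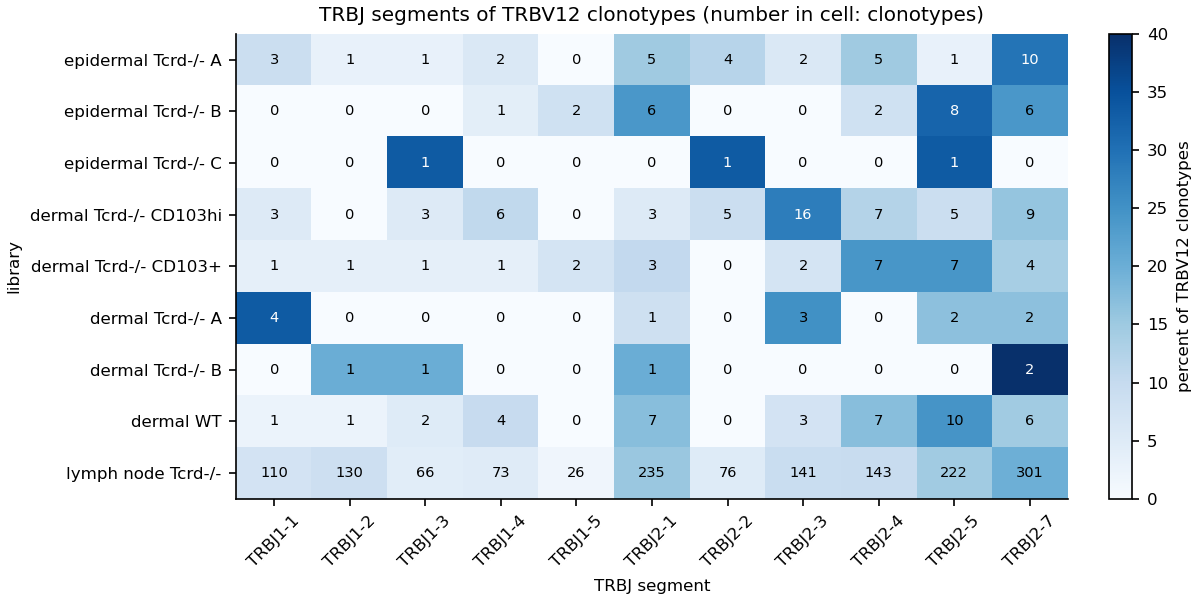
Percent of each library's TRBV12 clonotypes that carry each TRBJ segment (colour), with the number of clonotypes in the cell. TRBJ2-3 holds 16 of the 57 CD103hi clonotypes and TRBJ2-5 8 of the 25 of epidermal B, while TRBJ1-1 in dermal A has 4 of 12, of which 3 had unmatched CDR3 ends.

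The 2 TRBJ clusters were tested as the share of clonotypes with a TRBJ1 segment. It was 20.6, 12 and 33.3% for TRBV12 in epidermal A, B and C, against 24.6, 21.5 and 29.0% for the other TRBV segments of the same libraries. It was 21.1% against 31.3% in CD103hi and 20.7% against 33.3% in CD103+ dermal cells. Dermal A and B had 33.3 and 40% for TRBV12, against 26.5 and 20.8%. WT dermis had 19.5% against 29.5% and lymph node 26.6% against 30.4%. Over the 8 libraries with at least 5 TRBV12 clonotypes the TRBV12 share was lower in 6, by a mean of -3.01 ± 10.9 percentage points (SD, n = 8). The exact two-sided sign-flip permutation test gave an adjusted p of 0.583 (Benjamini-Hochberg over 4 measures), which misses the threshold of 0.05. With at least 2 reads per clonotype the difference was -6.46 points with an adjusted p of 0.03125 (exact sign-flip permutation test, n = 7).

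TRBV12 CDR3 sequences were slightly longer than those of other TRBV segments in the same library. Their mean length was 13.5, 13.6 and 13 amino acids in epidermal A, B and C, against 13.1, 13.0 and 13.1 for other segments. CD103hi cells had 13.3 against 13.2, and CD103+ cells 13.4 against 13.5. Dermal A and B had 14.8 and 14 against 14 and 13.8, WT dermis 14.2 against 13.8 and lymph node 13.9 against 13.8. The difference was 0.312 ± 0.288 amino acids (SD, n = 8 libraries), higher in 7 of 8, with an exact sign-flip permutation p of 0.015625 and an adjusted p of 0.03125. The call was lost in most alternatives, and among clonotypes with matched CDR3 ends the difference was 0.136 amino acids with an adjusted p of 0.208 (exact permutation test). Leaving out any 1 of 7 of the 8 libraries, dermal A being the exception, gave an adjusted p of 0.0625 (exact permutation test), and the same was found for the share without inserted nucleotides described next.

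Chains without an inserted nucleotide were common in the epidermal and CD103hi libraries. By the deposited segment positions, 50, 56 and 66.7% of TRBV12 clonotypes in epidermal A, B and C had none, against 45.8, 45.9 and 36.2% of other clonotypes. The share was 50.9% against 44.3% in CD103hi and 37.9% against 30.7% in CD103+ cells. Dermal A and B had 16.7 and 20%, against 18.4 and 18.1%. WT dermis had 29.3% against 20.3% and lymph node 22.8% against 17.1%. The TRBV12 share was higher in 7 of 8 libraries, by 5.40 ± 3.86 points (SD, n = 8), with an exact sign-flip permutation p of 0.015625 and an adjusted p of 0.03125.

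That difference depended on how the junction was read. Among clonotypes with matched CDR3 ends it was 8.55 points by the deposited positions, with an adjusted p of 0.0156 (exact permutation test, n = 8). Among the same clonotypes, with inserted bases counted from the reference segments, it was 0.917 points with an adjusted p of 0.727 (exact permutation test, n = 8). At 10 or more reads per clonotype it was -2.05 points, and for TRBV12-1 alone -5.36 points. The deposited V end reached past the 15 reference bases of the V segment in 68 of the 206 skin clonotypes and 42.5% of lymph node clonotypes. Bases beyond the V reference then count as V and not as inserted. The mean number of inserted nucleotides differed by -0.131 ± 0.772 between TRBV12 and other clonotypes (SD, n = 8), with an adjusted p of 0.656 (exact permutation test). Among clonotypes with matched ends it differed by -0.646, with an adjusted p of 0.0156 (exact permutation test, n = 8). With inserted bases counted from the reference segments it differed by -0.755, with an adjusted p of 0.219 (exact permutation test, n = 8). In dermal A the 12 TRBV12 clonotypes averaged 5.5 inserted nucleotides and the 7 with matched ends 1.14.

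**Figure D4:**
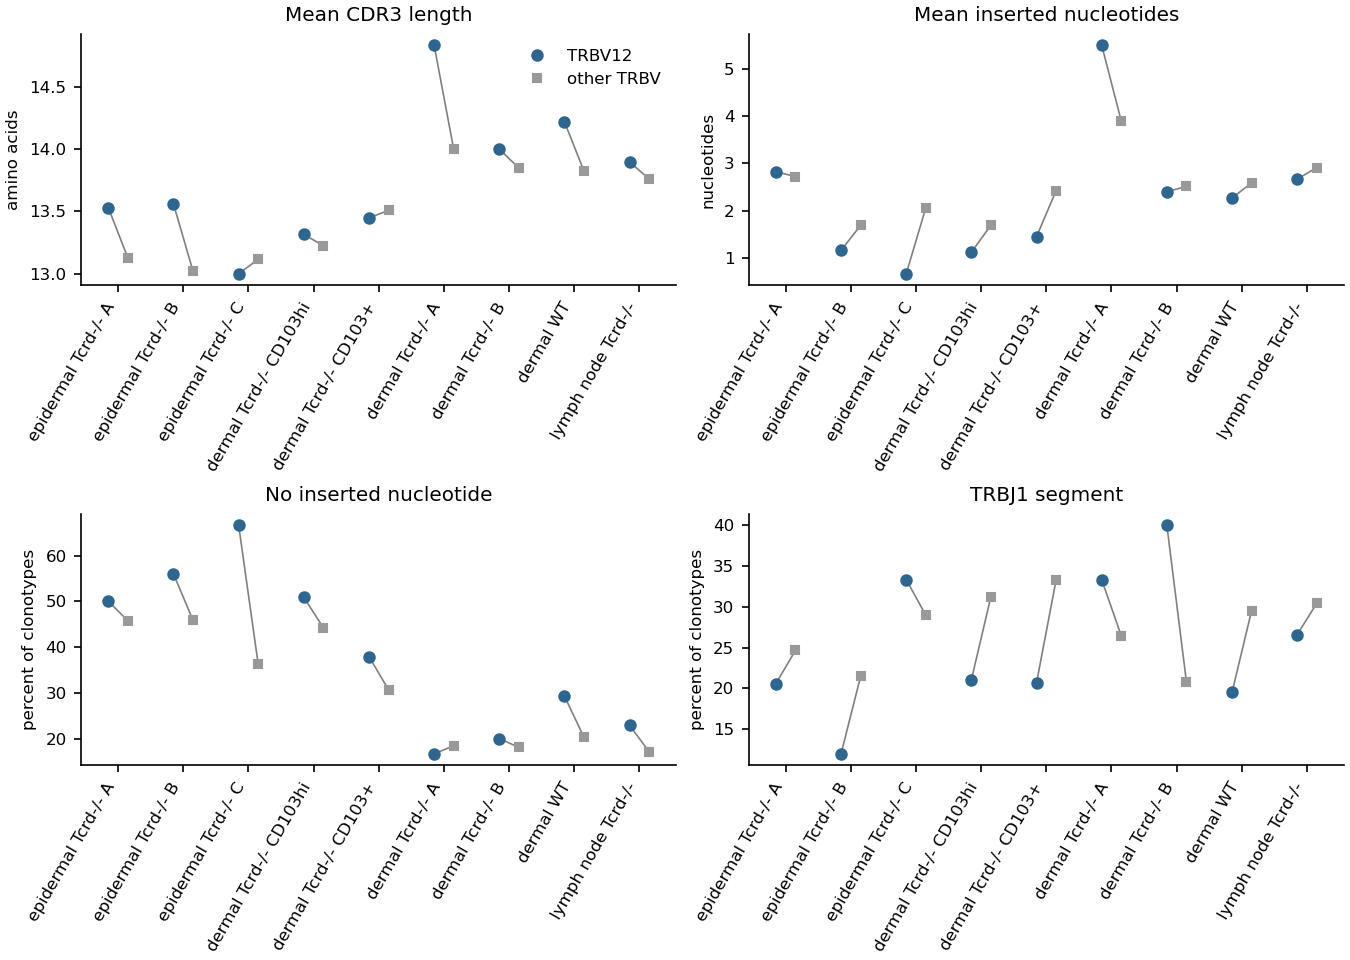
The 4 CDR3 measures per library for TRBV12 (circles) and other TRBV clonotypes (squares), joined within a library: mean length in amino acids, mean inserted nucleotides, and the percent of clonotypes with no inserted nucleotide or with a TRBJ1 segment. The vertical axes do not start at 0. TRBV12 lies higher in 7 of the 8 tested libraries for length and for no inserted nucleotide; epidermal C, with 3 TRBV12 clonotypes, was not tested.

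Within the family, epidermal and bulk dermal chains were compared over libraries, where 3 against 2 cannot give an exact two-sided permutation p below 0.2. TRBV12 clonotypes without an inserted nucleotide made up 57.6% ± 8.44 in epidermis (SD, n = 3) and 18.3% ± 2.36 in bulk dermis (SD, n = 2). The values did not overlap, and the test gave p = 0.2 and 0.4 after adjustment over 4 measures (exact permutation test). Dermis rests on 2 of 12 and 1 of 5 clonotypes, and their exact 95% intervals, 2.09 to 48.4% and 0.505 to 71.6%, overlapped those of all 3 epidermal libraries. Other TRBV clonotypes were split likewise, with 45.8, 45.9 and 36.2% in epidermal A, B and C against 18.4 and 18.1% in dermal A and B. The count from the reference segments covers clonotypes with matched ends. By it, 9 of 30, 5 of 19 and 2 of 3 in epidermal A, B and C had no inserted base, against 0 of 7 and 1 of 5 in dermal A and B. By that count CD103hi dermal cells had 15 of 40 (37.5%), CD103+ cells 5 of 23 (21.7%), WT dermis 0 of 37 and lymph node 73 of 1466 (4.98%). Over the 8 tested libraries TRBV12 differed from other TRBV by a mean of 0.917 points by the same count, so these values are not particular to TRBV12.

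Epidermal TRBV12 CDR3 sequences averaged 13.4 ± 0.315 amino acids (SD, n = 3) and dermal ones 14.4 ± 0.589 (SD, n = 2), again without overlap (exact permutation p = 0.2, adjusted 0.4). Other TRBV clonotypes averaged 13.1, 13.0 and 13.1 in epidermal A, B and C, against 14 and 13.8 in dermal A and B. Mean inserted nucleotides of TRBV12 were 1.55 ± 1.13 in epidermis and 3.95 ± 2.19 in dermis, with overlap and an exact permutation p of 0.4. Among clonotypes with matched ends the epidermal minus dermal difference shrank to -0.555 inserted nucleotides, with an exact permutation p of 0.6. Counted from the reference segments it was -0.443, with an exact permutation p of 0.8. The TRBJ1 share was 22.0% ± 10.7 in epidermis and 36.7% ± 4.71 in dermis, with overlap and an exact permutation p of 0.4. Whether the difference between TRBV12 and other segments itself differed between epidermis and dermis was also examined, with exact permutation p values of 0.6, 0.4, 0.2 and 0.2 for length, inserted nucleotides, no inserted nucleotide and TRBJ1. That last family of 4 tests was added after the data had been seen.

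The share of TRBV12 clonotypes that kept an uncut V end varied between libraries. Among clonotypes with matched ends, the whole 15-base V end was kept in 16 of 30 (53.3%), 5 of 19 (26.3%) and 2 of 3 (66.7%) in epidermal A, B and C. It was kept in 20 of 40 (50%) in CD103hi and 10 of 23 (43.5%) in CD103+ dermal cells. It was kept in 1 of 7 and 2 of 5 in dermal A and B, 24.3% of 37 in WT dermis and 36.6% of 1466 lymph node clonotypes. The epidermal and CD103hi sequences printed above keep all 15 bases except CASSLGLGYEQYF, which keeps 14. Leading TRBV12-2 chains elsewhere varied, with 13, 11 and 12 bases for the 3 largest of CD103+ dermal cells and 14, 14 and 13 in dermal A. The 3 largest TRBV12-2 chains of WT dermis kept 15, 14 and 13, and the largest TRBV12-2 chain of dermal B kept 11. Leading TRBV12-1 chains varied as well. The largest TRBV12 clone of dermal B, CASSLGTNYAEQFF with TRBV12-1, kept 15, and the next TRBV12-1 chain there kept 9. The largest TRBV12-1 chain kept 15 in CD103+ dermal cells, 14 in dermal A and 11 in WT dermis. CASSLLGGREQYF of epidermal B and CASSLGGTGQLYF of epidermal C, also among the 3 largest there but not printed above, kept 14 each. In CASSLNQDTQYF and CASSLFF the V stretch joined the J stretch with no base between. In the TRBJ2-1 clone of epidermal A and in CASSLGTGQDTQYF all bases between matched one unbroken stretch of Trbd2, of 11 bases for the first and 8 for the second.

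**Figure D5:**
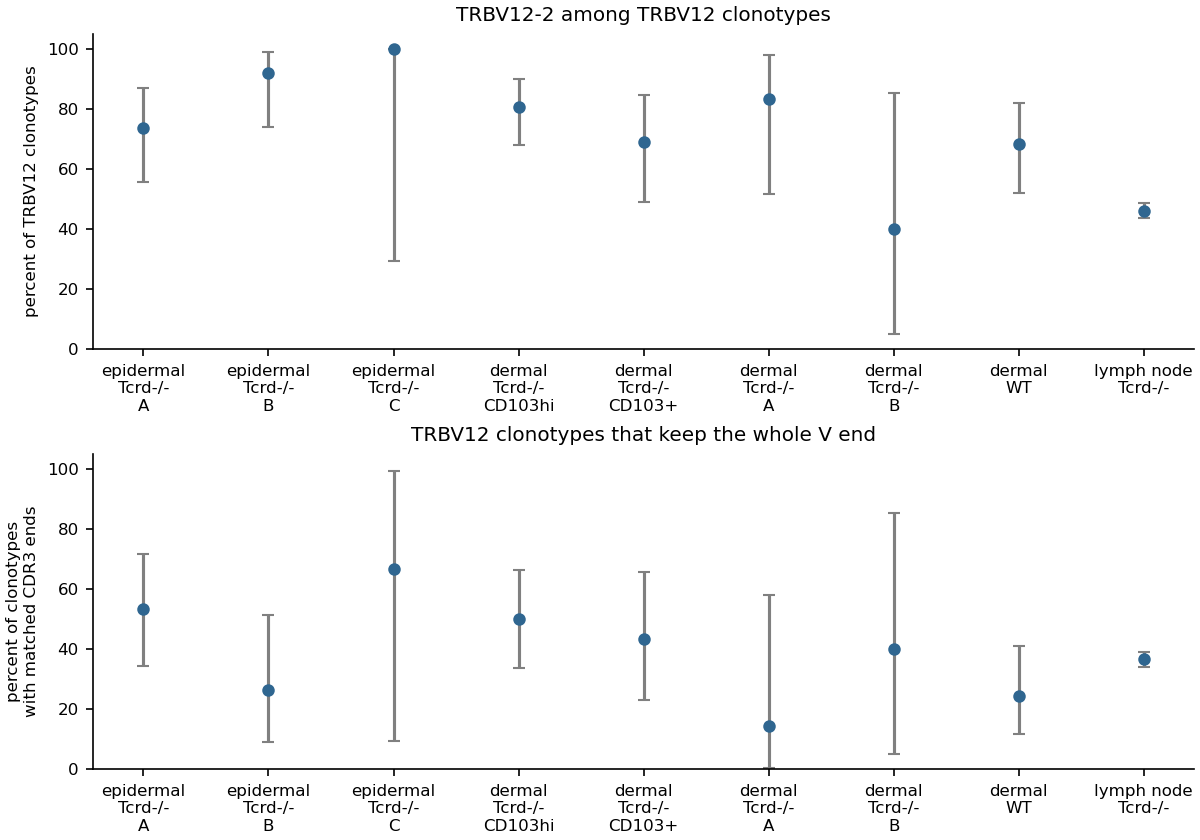
Top, TRBV12-2 as a percent of TRBV12 clonotypes; bottom, percent of TRBV12 clonotypes with matched CDR3 ends that keep all 15 germline V bases, each with its exact 95% interval. Lymph node lies at 46.2% in the top panel, below the point values of every skin library but dermal B, and in the bottom panel the skin intervals are wide, with CD103hi at 50% and lymph node at 36.6%.

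Recurrence of TRBV12 chains between libraries was counted beside that of other chains. By V, J and amino acid CDR3, 20 of 1647 TRBV12 sequences (1.21%) were found in 2 or more of the 9 libraries, against 321 of 26145 (1.23%) of other TRBV. Within the 8 skin libraries the counts were 16 of 176 (9.09%) for TRBV12 and 192 of 2235 (8.59%) for other TRBV. No test was run on these shares. With TRBV12-1 and TRBV12-2 merged, 26 TRBV12 sequences with matched ends were in 2 or more libraries and 2 in 3 libraries. Over the 7 pairs of skin libraries within a set, 14 shared sequences were counted, and in 10 cases the nucleotide clonotype was at trace level in one of the pair. Over the 21 skin pairs from different sets the count was 2, with 0 at trace level. Each of those 2 cases was one of the pair of sequences found in 3 libraries, shown here because they were found in the most libraries.
TRBJ2-2 chain: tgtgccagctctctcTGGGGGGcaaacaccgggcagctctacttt
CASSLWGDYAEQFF, with TRBJ2-1: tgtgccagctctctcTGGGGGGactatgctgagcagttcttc
The TRBJ2-2 chain had 429 reads in epidermal A, 3 in CD103hi dermal cells and 1 in lymph node. Its share of 0.00943% in CD103hi dermal cells, against 0.930% in epidermal A, lay just above the 1% cut. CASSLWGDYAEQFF had 2 reads in epidermal A, 91 in epidermal B and 1 in lymph node. Both used TRBV12-2, had the same nucleotide sequence in each library, no inserted base and the same 7 bases, all of a Trbd2 stretch, between V and J.

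Several leading clones were also found in another library, at low read counts. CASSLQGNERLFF and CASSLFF had 1 read each in CD103+ dermal cells, in the same set as CD103hi. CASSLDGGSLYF had 1 read in dermal A, in the set of epidermal A. These same-set cases were all at trace level, and their origin was not tested. The amino acid CDR3 of the TRBJ2-1 clone of epidermal A occurred in lymph node with 2 reads, with TRBV12-1 and another nucleotide sequence. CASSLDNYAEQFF had 1 lymph node read with the nucleotide sequence of the CD103hi clone, but listed under TRBV12-1. Since the V ends are identical, whether the 2 libraries hold the same chain cannot be told from CDR3.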

How the data were processed

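Receptor transcripts of sorted cells were copied by 5′ RACE, amplified and sequenced on a MiSeq, per the labels' protocols. The deposited tables give a read count per clonotype, and the authors' second value, the fraction of library reads, equalled count over total. They also list V, D and J segments and the CDR3 positions of segment ends. Which aligner, caller, error correction and segment reference the authors used was not given in the sources used here. One TRG library was left out.

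Clonotypes were defined by V, J and nucleotide CDR3. The TRBV12 clonotypes and all lists were chosen with earlier results of these data known. Named clonotypes were the 3 with most reads per TRBV12 segment and skin library, the 3 largest of lymph node and up to 10 shared ones; the text gives those it needs. The 4 measures were averaged over distinct clonotypes. Inserted nucleotides were CDR3 bases that the deposited positions assign to no segment. TRBV12 minus other TRBV was tested by exact two-sided sign flips over the 8 libraries with at least 5 TRBV12 clonotypes (smallest p 0.0078125). Epidermal minus dermal libraries were tested by exact two-sided permutation over 10 splits. Both were adjusted by Benjamini-Hochberg over 4 measures and tested on simulated data. The labels do not say how animals were divided between pools, so p-values reflect spread among these libraries only, which may be technical.

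Shares have exact (Clopper-Pearson) 95% intervals, for counting error only, and a count of 0 allows 3 counts of the total. Libraries of 31823 to 189162 reads make that limit between 0.00159 and 0.00943%. Alternatives are in the closing section. Those chosen after seeing the data were matched CDR3 ends (at least 6 V and 7 J reference bases, the J minimum lowered after match lengths were seen), removal of clonotypes 1 base from one with 20 times the reads, junctions counted from GENCODE M21 (GRCm38) segments (D match of at least 5 bases), and no minimum of clonotypes. Python 3.11.15, SciPy 1.17.1 and pandas 2.3.3 were used.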

Additional observations from a re-analysis of the deposited data

Results flagged for a closer look

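The share of clonotypes with a TRBJ1 segment, TRBV12 minus other TRBV, had opposite signs in epidermis and bulk dermis among libraries with at least 5 TRBV12 clonotypes. It was -4.06 and -9.46 percentage points in epidermal A and B, against 6.88 and 19.2 points in dermal A and B, a difference between the means of -19.8 points. This difference over 4 libraries was not tested. With epidermal C (3 TRBV12 clonotypes, 4.35 points) the exact permutation test gave p = 0.2, the smallest it can give for 3 against 2. The dermal values rest on 4 of 12 and 2 of 5 clonotypes. In dermal A, 3 of the 4 had CDR3 ends that did not match the reference, and 14.3% of its 7 clonotypes with matched ends used TRBJ1.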

How the results depend on the processing

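The 2 called differences between TRBV12 and other TRBV clonotypes, in length and in the share without inserted nucleotides, fell short of the threshold in most alternatives, with adjusted p between 0.03125 and 0.5 for length and between 0.015625 and 0.727 for the share (exact permutation tests). The length difference in amino acids was 0.260 at 10 or more reads, 0.259 by reads, 0.217 with complete CDR3 only, 0.422 for TRBV12-1, 0.162 for TRBV12-2, and 0.310 with a D segment. It was 0.136 with matched ends, 0.270 without 1-base neighbours, 0.335 with at least 10 clonotypes, 0.337 without lymph node, 0.327 in Tcrd-/- skin and 0.264 in all 9 libraries. The share without inserted nucleotides reversed to -2.05 points at 10 or more reads, -5.36 for TRBV12-1 and -1.04 with a D segment. It was 4.48 points by reads, 7.50 with complete CDR3 only, 3.88 without trace clonotypes, 10.6 for TRBV12-2, 6.70 without 1-base neighbours, 8.55 with matched ends (adjusted p 0.0156, exact permutation test), 0.917 with matched ends and reference junctions, 5.90 with at least 10 clonotypes, 5.35 without lymph node and 4.75 in Tcrd-/- skin. Inserted nucleotides reversed to 0.130 for TRBV12-1 and 0.312 with a D segment. They passed the threshold with matched ends (-0.646), as TRBJ1 did at 2 or more reads (-6.46 points). With reference junctions inserted nucleotides missed it (-0.755, adjusted p 0.219, exact permutation test). Without 1 library at a time, the differences ran from 0.238 to 0.365 amino acids, -0.379 to -0.0102 inserted nucleotides and 4.73 to 6.42 points without insertion; inserted nucleotides passed without dermal A (-0.379, adjusted p 0.0417, exact permutation test). Fewer libraries or clonotypes enter many of these fits, and the cause of the changes was not tested. Epidermal minus dermal values reversed for inserted nucleotides at 2 or more reads (0.244) and for TRBJ1 with TRBV12-1 alone (8.33 points) or TRBV12-2 alone (2.89 points). For TRBV12-1 alone the difference without insertion was 0 points. With the replicate letter as a replicate block (A with A, B with B) the differences were -0.872 amino acids, -1.96 inserted nucleotides, 34.7 points without insertion and -20.4 points for TRBJ1, each with an exact permutation p of 0.5, the smallest for 2 pairs; the labels do not say that letters mark shared animals. The library set was also used as the block, pairing epidermal A with dermal A and epidermal C with dermal B. The differences were then -1.15 amino acids, -2.20 inserted nucleotides, 40 points without insertion and -9.71 points for TRBJ1. Each had an exact permutation p of 0.5. Removing the largest clonotype moved 9 of the 18 segment read shares beyond their intervals. Epidermal C, dermal A and dermal B had 3, 12 and 5 TRBV12 clonotypes, which limits the precision of their values.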

Other observations

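The amino acids DWG, which Trbd2 can encode in one reading frame, occurred in 4 of 34, 3 of 25 and 0 of 3 TRBV12 clonotypes of epidermal A, B and C. They occurred in 11 of 57 in CD103hi and 3 of 29 in CD103+ dermal cells, in none of dermal A or B, in 5 of 41 in WT dermis and in 86 of 1523 in lymph node. In percent, TRBV12 had 11.8, 12 and 0 against 10.9, 15.1 and 7.25 for other TRBV in epidermal A, B and C, so it was higher in A and lower in B and C. It had 19.3 against 13.5 in CD103hi, 10.3 against 4.54 in CD103+, 0 against 5.83 and 5.56 in dermal A and B, 12.2 against 6.66 in WT dermis and 5.65 against 4.22 in lymph node. Of the 11 CD103hi clonotypes, 2 had matched CDR3 ends. The motif was chosen after its values were seen and was not tested.

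After a whole V end, the next bases were GA in 19 of 65 skin clonotypes (29.2%) and in 31.9% of lymph node clonotypes.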
